A study of Mus musculus with 6 samples.

Results

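Genes named as markers of arterial and portal endothelial cells (ECs) were followed in the liver, 10 of the 24421 gene symbols of the count table. The rule that chose them was a list of names, drawn up with earlier results of these data known: the connexins *Gja4* and *Gja5*, the guidance molecules *Efnb2*, *Sema3g* and *Unc5b*, the kinase *Bmx*, the transcriptional regulator *Mecom*, and the matrix proteins *Ltbp4*, *Fbln2* and *Fbln5*. All 10 passed the filter on low counts and were among the 14612 genes tested. RNA-seq had been performed on CD31+CD45- cells sorted from the liver of wild-type C57BL/6J mice, and the study used female mice only. The young group was 3 samples from 10-week-old mice, and the aged group was 1 sample each of 127, 131 and 136 weeks. No sample carried a transgene, a deletion or a treatment, and mice with visible tumors or an enlarged liver or spleen had been excluded by the study. The labels do not say whether a library came from 1 mouse, so p-values measure the spread between these samples only.

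Arterial ECs line the vessels that bring blood at high pressure and flow, and Notch signaling through *Dll4*, *Jag1* and the *Hey* genes is central to their identity. They display ephrin-B2 (*Efnb2*) while venous ECs display its receptor EphB4, and this pair keeps both vessel types apart. Flow-exposed arterial ECs are coupled by gap junctions made of connexin 37 (*Gja4*) and connexin 40 (*Gja5*) and rest on elastic fibers. In the liver the hepatic artery and the portal vein run together in the portal tract, and most ECs of the organ are sinusoidal, so that portal and arterial cells are a minority of a CD31+CD45- sort. In bulk RNA, fewer cells of a type and less RNA per cell cannot be told apart.

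The libraries held 23001556 to 31651817 counts. Pan-endothelial RNA was abundant in all 6: *Pecam1*, which encodes CD31, lay between 425 and 506 FPKM (fragments scaled to transcript length and library size, a level that allows genes of different length to be compared). The sort was not free of other RNA, since 12 leukocyte markers summed to 28.1 to 51.9 FPKM in the young samples and to 157, 33.7 and 532 FPKM at 127, 131 and 136 weeks. *Ptprc*, which encodes CD45, was 0.216 to 0.338 FPKM in the young samples and 1.46, 0.248 and 4.86 FPKM in the same aged order. The 136-week library thus stood apart in leukocyte RNA. Independently of age, young replicate 3 and the 127-week library had few counts on *Lars2* and *Rn45s*, symbols that collect ribosomal RNA (1.29% and 0.960%), against 4.68% to 5.53% in the other 4 libraries. Values within these library sets are given where they differ in direction from the pooled ones.

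Aged and young samples were first compared over the 10 genes. No member passed an adjusted p of 0.05 in edgeR's quasi-likelihood test with Benjamini-Hochberg adjustment, where 0% of all genes tested did (0 of 14612, with 1847 at an unadjusted p below 0.05); the DESeq2 Wald test called 639 genes and limma-voom 15. At an unadjusted p below 0.05, 4 members were higher in aged ECs (*Bmx*, *Mecom*, *Fbln2* and *Fbln5*) against 8.32% of all genes. In the other direction 0 members were lower at that threshold, against 4.32% of all genes. The counts of these 4 genes scaled to library size (CPM) were higher in every aged sample than in any young sample, which held for 9.62% of all genes, and 0 members had all aged samples below all young, against 8.33%. The log2 fold change was above 0 in 8 members and below 0 in 2, with a median of 0.64 over the members and 0.0098 over all genes tested. Without the 136-week library the median of the members was 0.25. The plot of FPKM by sample shows the values on which these counts rest.

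**Figure D1:**
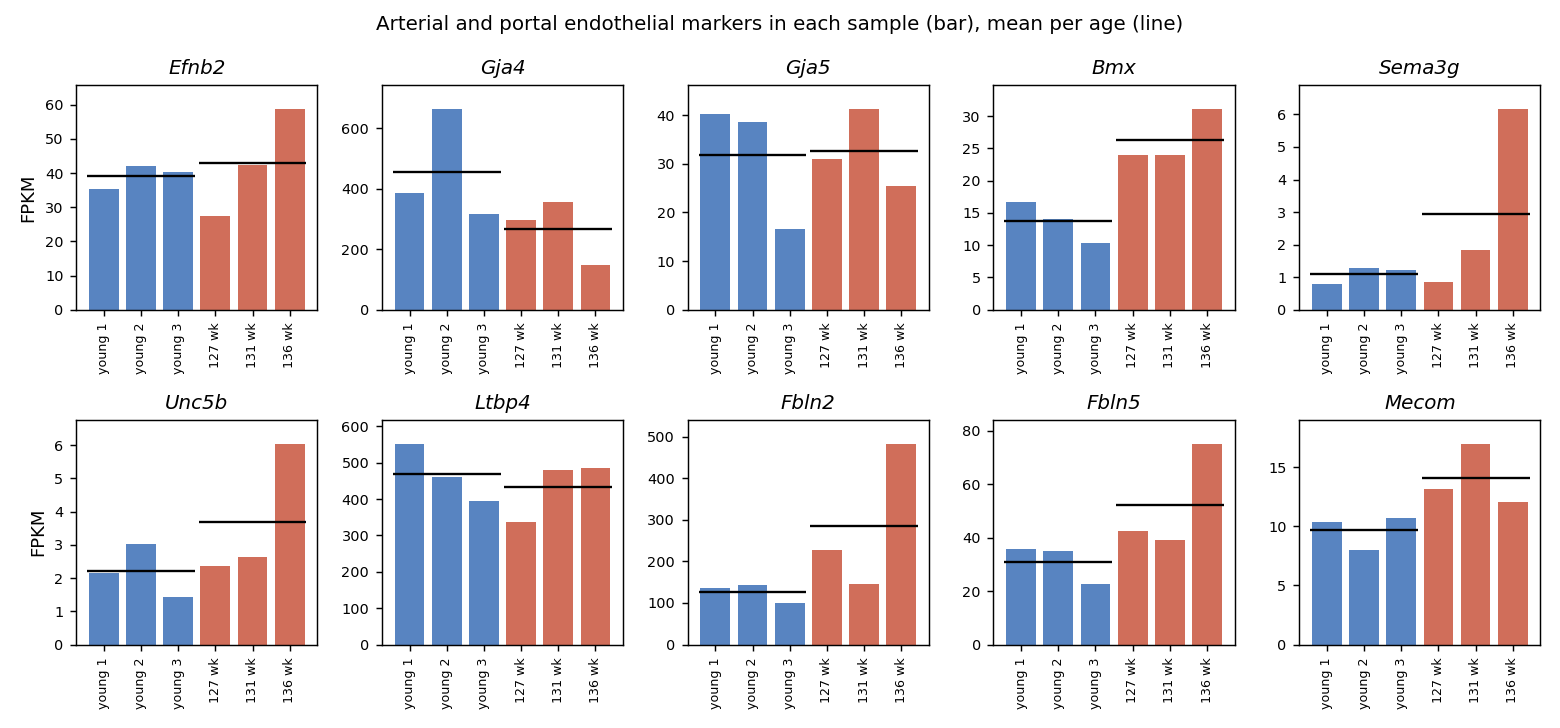
Expression of the 10 markers in each sample. Bars give FPKM for 3 young samples (blue) and the samples of 127, 131 and 136 weeks (red), black lines give the mean of each age, and each panel has its own axis from 0. In *Bmx* and *Mecom* every aged bar is above every young bar, while in *Sema3g* and *Unc5b* the 136-week bar alone stands high.

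*Bmx* is a non-receptor tyrosine kinase of the TEC family and a marker of arterial endothelium and endocardium. Its FPKM values were 16.7, 14.1 and 10.3 in the young samples and 23.9, 23.9 and 31.1 in the 127-, 131- and 136-week samples. The groups did not overlap, and the lowest aged sample was above the highest young sample. The mean was 13.7 ± 3.24 FPKM in young and 26.3 ± 4.13 FPKM in aged ECs (SD, n = 3 each). The log2 fold change of *Bmx* was 0.95 (SE 0.22, unadjusted p = 0.00293 and adjusted p = 0.235 by edgeR). It was the member with the smallest p. An unadjusted p below 0.05 was kept in 6 of 6 fits that left out 1 sample each. With the DESeq2 Wald test the adjusted p of *Bmx* was 0.0118, so that this gene was called by that tool and not by edgeR. Within the libraries with many *Lars2* and *Rn45s* counts its difference on the log2(CPM + 1) scale was 0.82, and within those with few it was 1.21.

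*Mecom* encodes the zinc finger regulator EVI1, which is expressed in arterial ECs and in hematopoietic stem cells. Young samples had 10.4, 8.03 and 10.7 FPKM and aged samples 13.2, 17 and 12 FPKM. Here too the ages did not overlap, and the highest value was that of the 131-week sample. Means were 9.68 ± 1.44 FPKM in young and 14.1 ± 2.59 FPKM in aged ECs (SD, n = 3 each). For *Mecom*, edgeR gave a log2 fold change of 0.55 (SE 0.19, unadjusted p = 0.0210 and adjusted p = 0.331). An unadjusted p below 0.05 was kept in 4 of 6 fits without 1 sample, and was lost without young replicate 2 and without the 131-week sample. Exons of *Mecom* overlap an antisense gene, *Gm16722*, and the use of strand in counting is not given in the sources used here.

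Of the other TEC family kinases, *Tec* was the highest, at 2.32, 2.56 and 1.57 FPKM in young and 7.43, 3.20 and 7.25 FPKM in aged samples. Of 4 such genes tested, 1 was higher and 0 were lower at an unadjusted p below 0.05, and 0 passed the adjusted threshold. Leukocyte markers were highest at 136 and then 127 weeks, and their part in the values of this family was not tested.

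To show the sequences next to which these genes start, the 250 bases upstream of the start site are printed for *Bmx*, *Gja4* and *Fbln5*. These are the members whose upstream window held a core motif of SOX factors (ACAAT) or of RBPJ, the DNA-binding partner of Notch (TGGGAA), on either strand; both families act in arterial specification. The sequences are those of RefSeq for GRCm38.p6 and were placed on mm9 by an exact match. Capitals mark the motifs, each sequence reads 5′ to 3′ on the minus strand, on which all 3 genes lie, and none of the 3 windows holds an annotated exon.
Bmx, chrX:160696126-160696375: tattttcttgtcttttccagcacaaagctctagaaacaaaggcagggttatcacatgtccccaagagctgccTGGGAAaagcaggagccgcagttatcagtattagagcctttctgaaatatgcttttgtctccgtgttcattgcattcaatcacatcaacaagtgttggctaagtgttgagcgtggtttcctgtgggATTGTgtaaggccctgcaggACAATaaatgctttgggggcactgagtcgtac
Gja4, chr4:126991284-126991533: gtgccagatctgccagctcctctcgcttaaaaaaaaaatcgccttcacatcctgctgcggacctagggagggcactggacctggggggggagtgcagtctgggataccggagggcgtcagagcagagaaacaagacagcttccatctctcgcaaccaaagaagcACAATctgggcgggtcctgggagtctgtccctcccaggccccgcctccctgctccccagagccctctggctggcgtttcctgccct
Fbln5, chr12:103057330-103057579: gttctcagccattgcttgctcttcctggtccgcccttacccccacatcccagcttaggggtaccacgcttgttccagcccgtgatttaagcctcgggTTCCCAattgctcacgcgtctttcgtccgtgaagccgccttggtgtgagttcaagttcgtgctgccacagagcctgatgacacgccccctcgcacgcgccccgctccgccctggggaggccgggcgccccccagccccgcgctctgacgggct
In *Bmx* the RBPJ core began 178 bases before the start site, and SOX cores began 52 and 32 bases before it. In *Gja4* a SOX core began 86 bases before the start, and in *Fbln5* an RBPJ core began 153 bases before it. *Fbln5* has another RefSeq start site, and the window upstream of that site, not printed here, held neither core. Matches to such short motifs are frequent: 27.7% of 32851 mouse promoters of this length held the SOX core and 21.6% the RBPJ core. Among 14 upstream windows of the 10 members, 2 held the SOX core and 2 the RBPJ core. Of 4 other motifs searched, the ETS core (GGAAG, which shares letters with the RBPJ core) was in 9 of the 14 windows against 64.1% of all promoters, and the KLF motif (CACCC) was in 7 against 52.0%. AP-1 (TGANTCA, in 6.75% of all promoters) and NF-κB motifs (in 1.41%) were in 0 of the 14 windows. Windows of the same gene can overlap, as in *Ltbp4*, so that the same site can count in several windows. By gene, the ETS core was in 6 of the 10 members and the KLF motif in 6, and no share over all genes was computed. The SOX and RBPJ cores marked here are a description of letters and not of binding, and their relation to the age differences was not tested.

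The connexins were compared next. *Gja4* encodes connexin 37 and was the second most abundant of the 10 genes. Young samples had 387, 663 and 316 FPKM, and the 127-, 131- and 136-week samples had 298, 357 and 147 FPKM. The ages overlapped, because the 131-week value was above that of young replicate 3, and the 136-week value was the lowest of all 6. Means were 456 ± 183 FPKM in young and 267 ± 109 FPKM in aged ECs (SD, n = 3 each), a difference within the spread of the samples. The log2 fold change of *Gja4* was -0.77 (SE 0.39, adjusted p = 0.482 by edgeR), the lowest of the members. Within the 4 libraries with many *Lars2* and *Rn45s* counts the difference on the log2(CPM + 1) scale was -1.14, and between the other pair it was -0.071.

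*Gja5* encodes connexin 40, its partner in arterial gap junctions. Its values were 40.2, 38.5 and 16.7 FPKM in young and 31.0, 41.3 and 25.5 FPKM in aged samples. The ages overlapped over nearly the whole range, with young replicate 3 as the lowest sample. Means were 31.8 ± 13.1 FPKM in young and 32.6 ± 8.0 FPKM in aged ECs (SD, n = 3 each). For *Gja5*, edgeR gave a log2 fold change of 0.039 (SE 0.35, adjusted p = 0.981), and its direction was not stable. Within the libraries with many *Lars2* and *Rn45s* counts the difference on the log2(CPM + 1) scale was -0.27, and within those with few it was 0.89. Exons of *Gja5* overlap those of *Gpr89* on the opposite strand, so reads in the shared stretch cannot be told apart without strand. The length of that stretch was not measured.

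The ratio of *Gja4* to *Gja5* FPKM was 9.63, 17.2 and 19.0 in young and 9.63, 8.65 and 5.75 in aged samples. Young replicate 1 and the 127-week sample had nearly equal ratios, and the lowest ratio was at 136 weeks. Of 14 other connexin genes, 6 passed the filter, of which 1 was higher and 0 were lower at an unadjusted p below 0.05, with 0 past the adjusted threshold. *Gja1*, which encodes connexin 43, had 188, 271 and 146 FPKM in young and 153, 266 and 465 FPKM in aged samples. At 136 weeks *Gja1* was thus at its highest level where *Gja4* was at its lowest. *Gjc1* (connexin 45) lay at 5.29 to 5.52 FPKM in young and 6.62 to 8.25 FPKM in aged samples, without overlap (log2 fold change 0.51, unadjusted p = 0.0264 and adjusted p = 0.341 by edgeR).

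Among the guidance molecules, *Efnb2* encodes ephrin-B2, the membrane ligand that defines arterial identity. Its FPKM values were 35.3, 42.1 and 40.5 in young and 27.5, 42.3 and 58.8 in aged samples. The aged samples held both the lowest and the highest value, and the young samples lay between. Means were 39.3 ± 3.56 FPKM in young and 42.9 ± 15.6 FPKM in aged ECs (SD, n = 3 each). For *Efnb2*, edgeR gave a log2 fold change of 0.14 (SE 0.27, adjusted p = 0.893), and it was -0.16 without the 136-week sample. Within the libraries with many *Lars2* and *Rn45s* counts the difference on the log2(CPM + 1) scale was 0.37, and within those with few it was -0.54.

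Its venous receptor *Ephb4* was more abundant than *Efnb2* in all 6 samples, at 195 to 267 FPKM in young and 176, 282 and 171 FPKM in aged samples. The ratio of *Efnb2* to *Ephb4* was 0.132, 0.159 and 0.207 in young samples and 0.156, 0.150 and 0.344 in aged samples. The 136-week library had the highest ratio, and the other aged libraries lay within the young range. Of 8 other B-type ephrins and Eph receptors, 7 were tested. At an unadjusted p below 0.05, 1 of them was higher and 0 were lower, and 0 passed the adjusted threshold. Their median log2 fold change was 0.38, but it was 0.043 without young replicate 3 and 0.089 on the log2(FPKM + 1) scale. After *Ephb4* the most abundant was the ligand *Efnb1*, at 33.1 to 64.7 FPKM in young and 48.1 to 53.8 FPKM in aged samples. *Epha4*, a receptor that also binds ephrin-B2, was the member of this list higher at the unadjusted threshold (1.68 to 2.28 FPKM in young and 2.64 to 3.30 FPKM in aged samples; adjusted p = 0.310 by edgeR), and it was picked out after its values were seen.

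*Sema3g* encodes a secreted class 3 semaphorin of arterial endothelium. Young samples had 0.793, 1.29 and 1.22 FPKM, and aged samples 0.839, 1.85 and 6.16 FPKM. The 136-week sample stood far above the others, and the 127-week sample lay within the young range. The aged mean of 2.95 ± 2.83 FPKM (SD, n = 3) had an SD almost as large as itself, and the young mean was 1.10 ± 0.267 FPKM (SD, n = 3). The log2 fold change of *Sema3g* was 1.44 (SE 0.68, adjusted p = 0.442 by edgeR), the highest of the members, and it was 0.31 without the 136-week sample. Within the libraries with many *Lars2* and *Rn45s* counts the difference on the log2(CPM + 1) scale was 1.52, and within those with few it was -0.41. Over all 6 samples an unadjusted p of 0.0708 was obtained by edgeR, and without the 127-week sample 0.0102 was obtained by edgeR. That fit was the only 1 of 6 edgeR fits without 1 sample to reach an unadjusted p below 0.05. *Sema3g* was also the least abundant member, with a mean of 2.02 FPKM over all 6 samples.

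*Unc5b* encodes a netrin receptor of arterial ECs and sprouting tip cells. Its values were 2.15, 3.01 and 1.44 FPKM in young and 2.35, 2.65 and 6.04 FPKM in aged samples. The 136-week sample stood above all others, and the other aged samples lay within the young range. Means were 2.2 ± 0.788 FPKM in young and 3.68 ± 2.05 FPKM in aged ECs (SD, n = 3 each). For *Unc5b*, edgeR gave a log2 fold change of 0.73 (SE 0.42, adjusted p = 0.534), and 0.17 without the 136-week sample.

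Of 23 ligands, receptors and co-receptors of the netrin and semaphorin pathways, 20 were tested, 5 were higher and 2 lower at an unadjusted p below 0.05, and 0 passed the adjusted threshold. Their median log2 fold change was -0.011, next to 0.0098 over all genes, and it ranged from -0.0037 to 0.096 when each sample was left out. *Nrp1*, a co-receptor of class 3 semaphorins and of VEGF, was the most abundant, at 339 to 393 FPKM in young and 261, 320 and 135 FPKM in aged samples. *Robo4*, an endothelial receptor that binds Unc5b, had 255 to 301 FPKM in young and 161 to 184 FPKM in aged samples, without overlap (log2 fold change -0.63, unadjusted p = 0.00500 and adjusted p = 0.243 by edgeR). *Ntn4*, next in level after *Robo4*, is given with the periportal genes below. *Sema3f*, which binds neuropilin-2 and is outside the 3 most abundant, was 190 to 193 FPKM in young and 191 to 196 FPKM in aged samples. *Ntn1*, the netrin ligand of Unc5b, was also outside the 3 most abundant and was looked at after its values were known. It lay at 7.25 to 14.8 FPKM in young and at 15.4, 23.9 and 28.2 FPKM in aged samples (log2 fold change 0.91, unadjusted p = 0.0271 and adjusted p = 0.343 by edgeR).

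Among the matrix proteins, *Ltbp4* encodes a latent TGF-β binding protein that assists elastic fiber assembly, and it was the most abundant member. Its values were 552, 462 and 396 FPKM in young and 337, 480.1 and 485 FPKM in aged samples. The ranges of both ages overlapped, and the lowest value was that of the 127-week sample. Means were 470.1 ± 78.4 FPKM in young and 434 ± 83.9 FPKM in aged ECs (SD, n = 3 each). For *Ltbp4*, edgeR gave a log2 fold change of -0.11 (SE 0.23, adjusted p = 0.907). The sign turned to positive without young replicate 1 (0.031), without the 127-week sample (0.055) and when libraries were scaled to pan-endothelial genes (0.16), a scaling that moved the median of all genes by 0.28.

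*Fbln2* encodes fibulin-2, a basement membrane and elastic fiber protein of vessel walls. Young samples had 135, 143 and 99.1 FPKM, and the 127-, 131- and 136-week samples had 228, 145 and 483 FPKM. The ages did not overlap, but the 131-week sample was barely above young replicate 2, and the 136-week sample was the highest by far. Means were 126 ± 23.6 FPKM in young and 285 ± 176 FPKM in aged ECs (SD, n = 3 each). The log2 fold change of *Fbln2* was 1.19 (SE 0.43, unadjusted p = 0.0268 and adjusted p = 0.342 by edgeR). Without the 136-week sample it was 0.57. An unadjusted p below 0.05 was kept in 3 of 6 fits without 1 sample, and was lost without young replicate 1, young replicate 3 or the 136-week sample.

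*Fbln5* encodes fibulin-5, which tethers elastin to microfibrils and to integrins. Its values were 35.6, 34.8 and 22.8 FPKM in young and 42.5, 39.1 and 75.2 FPKM in aged samples. Again every aged sample was above every young sample, with the 136-week sample the highest. Means were 31.1 ± 7.16 FPKM in young and 52.2 ± 19.9 FPKM in aged ECs (SD, n = 3 each). For *Fbln5*, edgeR gave a log2 fold change of 0.76 (SE 0.30, unadjusted p = 0.0406 and adjusted p = 0.374). An unadjusted p below 0.05 was kept in 2 of 6 fits without 1 sample, those without the 127-week or the 131-week sample, and the log2 fold change was 0.39 without the 136-week sample.

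**Figure D2:**
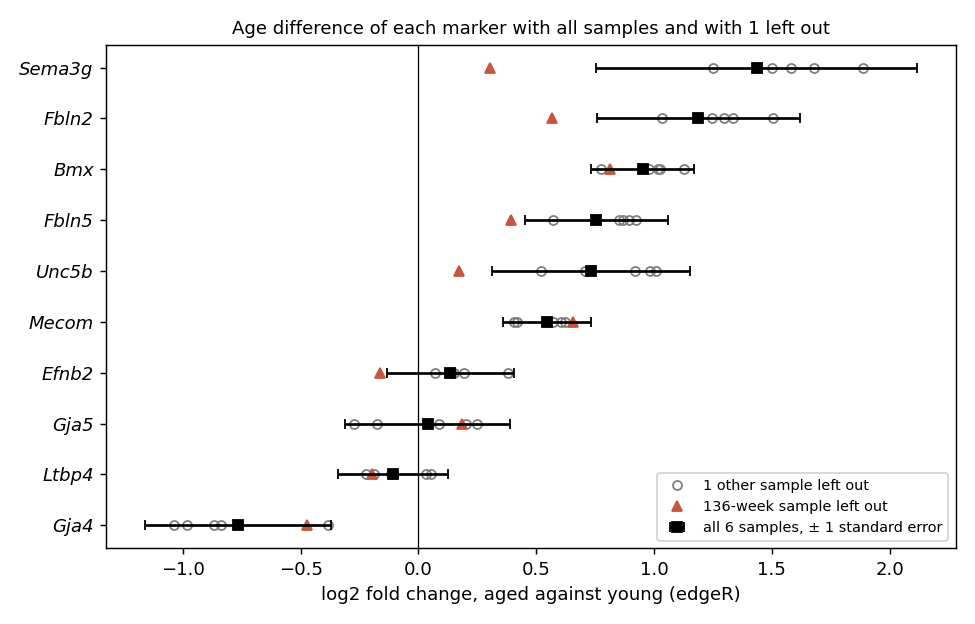
Log2 fold change of aged against young ECs for each of the 10 markers. Squares with bars give the value over all 6 samples ± 1 standard error, open circles the fits without 1 other sample, and triangles the fit without the 136-week sample. For *Sema3g* the triangle lies at 0.31 against 1.44 over all samples, while for *Bmx* it lies at 0.81 against 0.95.

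The ratio of *Fbln2* to *Ltbp4* FPKM was 0.245, 0.311 and 0.250 in young samples and 0.675, 0.302 and 0.997 in aged samples. At 131 weeks the ratio was within the young range, and at 136 weeks both genes were almost equal. Of 22 other elastic fiber and microfibril genes, 21 were tested, 2 were higher and 1 lower at an unadjusted p below 0.05, and 0 passed the adjusted threshold. Their median log2 fold change was 0.24, but it was -0.11 without the 136-week sample and -0.046 without young replicate 3. The most abundant, *Emilin1*, an elastin microfibril interface protein, was the lower one, at 188 to 247 FPKM in young and 125, 174 and 64.9 FPKM in aged samples (unadjusted p = 0.0419 and adjusted p = 0.378 by edgeR). *Efemp2*, which encodes fibulin-4, lay at 35.1 to 48.1 FPKM in young and 30.5 to 36.9 FPKM in aged samples. *Eln*, which encodes elastin itself, lay at 23.5 to 37.5 FPKM in young and at 36.2, 15.8 and 28.5 FPKM in aged samples. The genes higher at the unadjusted threshold were *Mfap2* (3.36 to 7.98 FPKM in young and 20.8, 9.76 and 43.1 FPKM in aged samples) and *Ltbp1* (3.25 to 6.08 FPKM and 8.85, 7.29 and 24.1 FPKM), named after their values were seen. In both, as in *Fbln2*, the order of the aged samples was 136, 127 and 131 weeks, and the share of all genes with that order was not counted.

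Since fibulins are also made by other cells, markers of these cells were measured beside them. Fibroblast markers (9 genes, 0 of them higher or lower at an unadjusted p below 0.05) summed to 127, 86.2 and 19.4 FPKM in young and 52.3, 43.5 and 103 FPKM in aged samples. Mural and stellate cell markers (11 genes, 0 higher and 1 lower at that threshold) summed to 32.7 to 56.6 FPKM in young and 47.7, 52.9 and 98.1 FPKM in aged samples. Both sums were at their aged highest at 136 weeks, yet the fibroblast sum of that sample was below that of young replicate 1. Lymphatic EC markers (7 genes, 6 tested, 2 higher and 0 lower) summed to 645 to 832 FPKM in young and 901, 492 and 1793 FPKM in aged samples. Within that list *Mmrn1*, a lymphatic EC glycoprotein, had 215, 275 and 106 FPKM in young and 451, 196 and 849 FPKM in aged samples, and the lymphatic regulator *Prox1* had 3.92 to 8.21 FPKM in young and 16.5, 6.33 and 38.3 FPKM in aged samples. *Prox1* is outside the 3 most abundant genes of the list and was picked out after its values were seen. The aged order of *Mmrn1*, *Prox1* and *Lyve1*, 136, 127 and then 131 weeks, was that of *Fbln2*. *Flt4* had another order, at 131, 188 and 249 FPKM at 127, 131 and 136 weeks. The share of all genes with the order of *Fbln2* was not counted. The lymphatic chemokine *Ccl21a* was at 0 counts in all 6 libraries, and *Lyve1* and *Flt4* of this list are also sinusoidal genes. Mesothelial and cholangiocyte markers are given further below. The part of fibroblast, mural, lymphatic, mesothelial, cholangiocyte and leukocyte RNA in the values of the members was not tested.

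Between genes, the mean FPKM over all 6 samples ran from 452 for *Ltbp4* through 361 for *Gja4*, 206 for *Fbln2*, 41.7 for *Fbln5*, 41.1 for *Efnb2*, 32.2 for *Gja5*, 20.0 for *Bmx*, 11.9 for *Mecom* and 2.94 for *Unc5b* to 2.02 for *Sema3g*. Of 9 neighboring pairs in this order, 7 had overlapping ranges over the samples. The ranges did not overlap between *Fbln2* and *Fbln5*, or between *Mecom* and *Unc5b*. The order therefore falls into 3 tiers, with *Ltbp4*, *Gja4* and *Fbln2* on top, *Fbln5* to *Mecom* in the middle, and *Unc5b* and *Sema3g* at the bottom. Of the pan-endothelial genes, *Pecam1* had a mean of 453 FPKM and *Cdh5* of 101 FPKM, so *Ltbp4* and *Gja4* were not rare RNAs in this sort. How much of their RNA came from ECs outside arteries and portal veins was not tested.

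As a share of the summed FPKM of the 10 genes, *Gja4* took 31.8%, 47.0% and 34.6% in young and 29.7%, 31.0% and 11% in aged samples. *Fbln2* took 11.1%, 10.2% and 10.8% in young and 22.7%, 12.6% and 36.3% in aged samples. These shares are parts of 1 whole, so that a higher share of one gene lowers the others. *Bmx* took 0.998% to 1.37% in young and 2.08% to 2.38% in aged samples. The summed FPKM itself was 915 to 1411 in young and 1004 to 1329 in aged samples, so that the aged range lay within the young range.

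**Figure D3:**
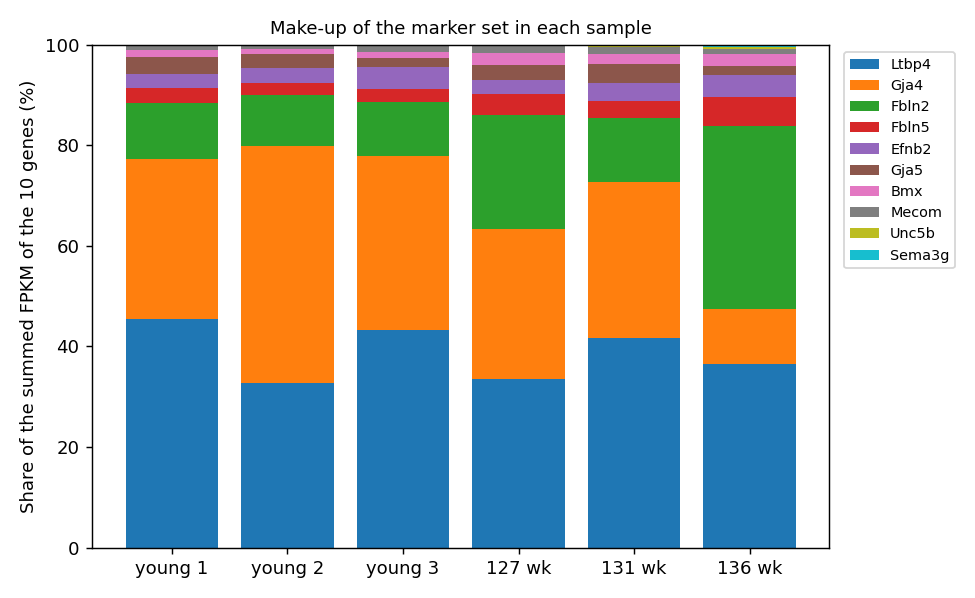
Share of each marker in the summed FPKM of the 10 genes, in percent, stacked for the 3 young samples and the samples of 127, 131 and 136 weeks. The *Gja4* segment is 11% and the *Fbln2* segment 36.3% at 136 weeks, against 31.0% and 12.6% at 131 weeks.

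The aged libraries did not behave alike across the members. In 6 of 10 members the highest of the 6 samples was that of 136 weeks, which was also the highest for 25.7% of all genes tested. Young replicate 3 was the lowest sample in 5 of 10 members and in 21.5% of all genes tested. Genes whose log2(CPM + 1) profile was most like the mean standardized profile of the members, out of 10214 others with a mean CPM of at least 5, were *Sertad2* (Pearson r over 6 samples 0.998), *Rybp* (0.996), *Pabpn1* (0.994), *Nhp2l1* (0.993) and *5730508B09Rik* (0.992). These genes were picked as the nearest of 10214 over only 6 points, so that high values are favored by the choice. They are a description of these 6 libraries.

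To set the members beside other EC types, lists of known markers were summarized by the same measures, and 0 genes of any list passed the adjusted threshold. Of 18 other arterial genes, 6 were higher and 1 was lower at an unadjusted p below 0.05, and the median log2 fold change was 0.62, close to the 0.64 of the members. It was 0.20 without the 136-week sample. The most abundant of them were overlapping between the ages or on the lower side: *Nrp1* (values above), *8430408G22Rik* (107 to 220.4 FPKM in young and 122 to 264 FPKM in aged samples) and the Notch ligand *Dll4* (88.3 to 101 FPKM in young and 69.8, 103 and 120.0 FPKM in aged samples). The higher 6 had lower levels and are named here after their values were seen: *Hey1*, *Jag1*, *Gkn3*, *Sox17*, *Alpl* and *Cxcr4*. The Notch target *Hey1* had 5.10, 6.71 and 7.14 FPKM in young and 17.4, 15.2 and 42.1 FPKM in aged samples (log2 fold change 1.98, adjusted p = 0.203 by edgeR). The Notch ligand *Jag1* had 21.6, 17.8 and 16.3 FPKM in young and 38.4, 30.0 and 44.3 FPKM in aged samples (log2 fold change 1.03, adjusted p = 0.193 by edgeR). *Sox17*, an arterial SOX factor, had 23.5 to 30.2 FPKM in young and 33.8 to 41.5 FPKM in aged samples (log2 fold change 0.46, adjusted p = 0.324 by edgeR). The gene lower at the unadjusted threshold was the receptor *Notch4*, at 20.6 to 30.0 FPKM in young and 12.1 to 18.6 FPKM in aged samples (log2 fold change -0.58, adjusted p = 0.366 by edgeR). These genes of the Notch pathway thus stood on both sides of 0.

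Periportal EC genes, which mark the sinusoid next to the portal tract, had a median log2 fold change of -0.17, with 1 higher and 1 lower of 6 tested at an unadjusted p below 0.05, and the median was 0.12 under pan-endothelial scaling and 0.0037 without young replicate 3. The guidance ligand *Ntn4*, the most abundant, lay at 157 to 278 FPKM in young and 149 to 220 FPKM in aged samples. The scavenger receptor *Msr1* was the lower one, at 222 to 253 FPKM in young and 85.8 to 113 FPKM in aged samples (log2 fold change -1.16, unadjusted p = 0.000254 and adjusted p = 0.177 by edgeR). The cytokine *Il1a* had 168 to 179.7 FPKM in young and 73.6, 189 and 123 FPKM in aged samples. Venous and pericentral genes had a median of 0.0065 (-0.11 to 0.12 when each sample was left out), with 1 higher and 2 lower of 12, and were led by *Rspo3* (275 to 349.6 FPKM in young and 470.2, 370.2 and 117 FPKM in aged samples), *Wnt2* and *Cdh13*. *Wnt2*, a pericentral angiocrine factor, was lower at the unadjusted threshold (363 to 411 FPKM in young and 124 to 245 FPKM in aged samples). *Cdh13*, which encodes T-cadherin, lay at 278 to 297 FPKM in young and at 282, 386 and 129 FPKM in aged samples.

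Sinusoidal genes had the lowest median, -0.85, with 0 higher and 8 lower of 12 at an unadjusted p below 0.05. They summed to 8300.0 to 9234 FPKM in young and 3427, 5751 and 3078 FPKM in aged samples. The lectin *Clec4g* (log2 fold change -1.46), the Fc receptor *Fcgr2b* (-0.90) and *Oit3* (-1.31) were the most abundant, and all 3 had every aged sample below every young sample. Pan-endothelial genes had a median of -0.27, with 0 higher and 3 lower of 10, which were *Kdr*, *Robo4* and *Esam*. The difference of the members from these lists was not tested. Of the cell types that could be carried over in the sort, leukocyte markers had a median of 2.50 (9 higher and 0 lower of 12), which was 1.124 without the 136-week library. Cholangiocyte markers had a median of 0.79 (2 higher and 0 lower of 5), and mesothelial markers had 2 higher and 2 lower of 5. The cholangiocyte sum, led by *Spp1*, was 67.8 to 82.3 FPKM in young and 143 to 180 FPKM in aged samples. The mesothelial sum, led by *Gpm6a*, was 78.6 to 124 FPKM in young and 149 to 224 FPKM in aged samples. Both sums were thus higher in every aged sample than in any young sample. Platelet markers had 0 in either direction of 6, and hepatocyte markers 0 higher and 1 lower of 7.

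**Figure D4:**
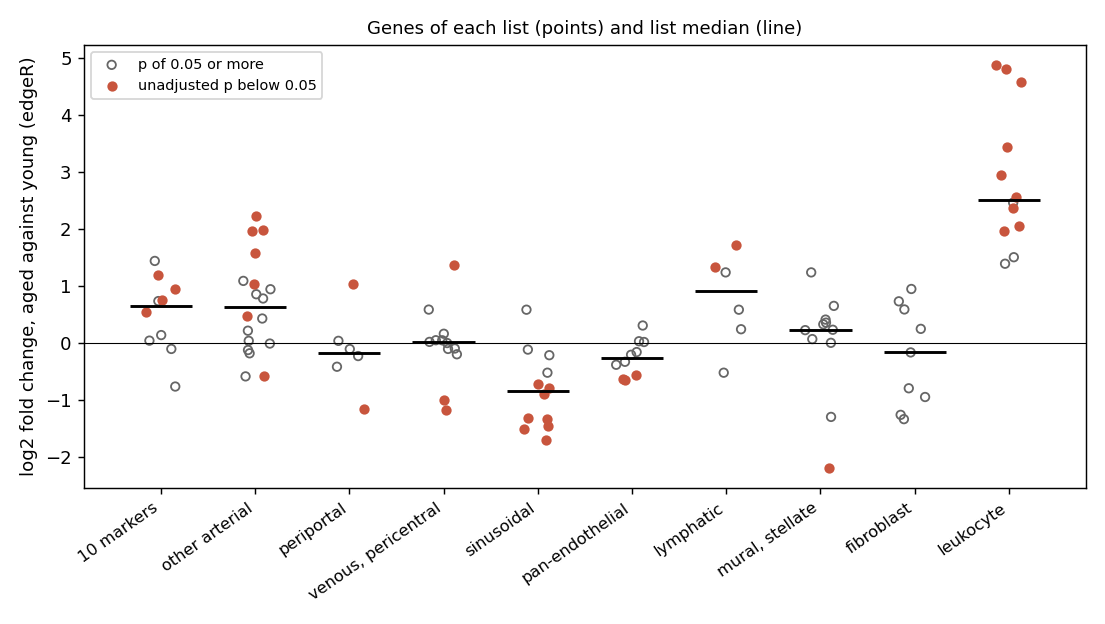
Log2 fold change of aged against young ECs for the genes of each marker list (points, filled at an unadjusted p below 0.05 in edgeR's test) and the median of each list (line). The lines of the 10 markers (0.64) and of other arterial genes (0.62) lie above 0, the sinusoidal line (-0.85) lies below, and the leukocyte line is at 2.50 (1.124 without the 136-week sample).

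In the mm9 annotation the members lie on 9 chromosomes and are all protein-coding. *Bmx* (ENSMUSG00000031377.4) spans chrX:160630774-160696125 and *Gja4* (ENSMUSG00000050234.7) chr4:126988665-126991283, both on the minus strand. *Fbln2* (ENSMUSG00000064080.6) spans chr6:91162449-91222534 on the plus strand, and *Fbln5* (ENSMUSG00000021186.8) spans chr12:102984775-103057265 on the minus strand. *Gja5* (chr3:96708616-96881339, plus strand) and *Mecom* (chr3:29850221-30446930, minus strand) share a chromosome.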

How the data were processed

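RNA of sorted CD31+CD45- liver ECs was analyzed in 3 young and 3 aged samples. Per the labels, bases were called with CASAVA 1.8.2 and 75-base single-end reads were mapped to mm9 with TopHat2 2.1.0. The authors deposited read counts per gene symbol without normalization; the counting program, its annotation and its use of strand are not given in the sources used here. FPKM values made with Cuffnorm 2.2.1 were also deposited, for 24346 symbols, and are used here for levels only.

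A gene was tested if its CPM reached 0.5 in 1 sample or more. Counts were normalized by TMM (factors 0.963 to 1.11) and compared with the quasi-likelihood test of edgeR 4.0.16 (R 4.3.3), and p-values were adjusted over all genes tested after Benjamini and Hochberg, with a threshold of 0.05. The script was tested on simulated data with changes larger than the fold changes of the members. That test therefore does not show whether differences of their size would be found. A gene at the floor of 3 counts had at most 0.130 CPM, a value set by library size alone. Replicates of an age differed beyond sampling noise (smallest chi-square per degree of freedom 19.9). Alternatives used DESeq2 1.42.0, limma 3.58.1 with voom or on log2 FPKM, other scalings and filters, a term for the library set, and the removal of each sample. An exact permutation test of 3 against 3 samples cannot give a p below 0.1 and was not used.

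The members and the marker lists were chosen with earlier results of these data known. All members are named, of each list up to 3 genes with the highest mean FPKM and any past the adjusted threshold, and the 5 genes nearest to the members' mean profile. *Gpr126* of the periportal list had no row under that symbol. Some genes of the lists that this rule names are not reported here. Positions are from GENCODE vM1, and promoters from RefSeq matched 10 of 10 members.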

Additional observations from a re-analysis of the deposited data

How the results depend on the processing

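The 10 markers were recomputed under other settings. The main number of genes past an adjusted p of 0.05 was 0. It was 639 with DESeq2 (484 higher and 155 lower), 15 with limma-voom, 4 with pan-endothelial scaling, 4 with no filter on low counts, 2 with a term for the library set, 1 on log2(FPKM + 0.1), and 0 to 1 when each sample was left out. Members past that threshold were 1 of 10 with DESeq2 (*Bmx*), beside 639 of 14612 genes. Members lower at an unadjusted p below 0.05 were 1 with DESeq2 (*Gja4*) and 1 with limma-voom, against 0. At that threshold the main edgeR fit had 8.32% of all genes higher and 4.32% lower. Such shares were not computed for the other settings, so their member counts have no share beside them. Members higher at that threshold, 4 over all samples, ranged from 2 to 5 when each sample was left out, and the members' median log2 fold change ranged from 0.246, without the 136-week sample, to 0.73, without the 127-week sample. The direction turned in *Ltbp4* with pan-endothelial scaling (0.16), without young replicate 1 (0.031) and without the 127-week sample (0.055). It turned in *Gja5* with limma-voom (-0.20), without young replicate 3 (-0.27) and without the 131-week sample (-0.17). In *Efnb2* it turned without the 136-week sample (-0.16). On the log2(CPM + 1) scale it turned in *Gja5* (-0.27) within the libraries with many *Lars2* and *Rn45s* counts. Within those with few it turned in *Efnb2* (-0.54) and *Sema3g* (-0.41). The values farthest in the main direction without 1 sample were 0.38 for *Efnb2*, 0.25 for *Gja5* and -0.22 for *Ltbp4*. Pan-endothelial scaling moved the median of all genes by 0.28 on the log2 scale, so that its higher values are relative to that shift. The cause of these differences was not tested. *Bmx*, *Mecom*, *Fbln2* and *Fbln5* were higher in aged ECs under every alternative run. So was *Unc5b* (0.17 to 1.03), and *Gja4* was lower under every one (-1.14 to -0.071). The first 4 had been picked out by the same samples, so a kept direction is no separate support for them. No paired analysis was possible because the labels of the aged samples carry no replicate numbers. With 3 samples an age, differences such as that of *Gja4* were within the spread of the samples.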
